A study of Mus musculus with 13 samples.

Results

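The 9 genes described here encode enzymes and a transfer protein that make or carry the lipids of myelin, Ugt8a, Gal3st1, Fa2h, Cers2, Aspa, Elovl1, Elovl7, Gltp and Degs1. They were taken by gene symbol from the annotation deposited with the counts, which names 55401 genes. Each symbol had 1 row, and all 9 genes passed the filter on low counts that left 14985 genes for testing. The RNA came from 1 snap-frozen brain hemisphere per mouse, from 13 male C57BL/6J mice in 3 groups. The labels give an age of 6 to 8 weeks at the start of the cuprizone diet, and the study's text an older age. Mice of the control group (CTL, n = 5) ate normal chow over 6 weeks. The cuprizone group (CPZ, n = 4) received chow with 0.3% cuprizone, a copper chelator that injures oligodendrocytes, for 4 weeks and was collected at the end of week 4. The recovery group (RCV, n = 4) had 4 weeks of the cuprizone chow followed by 2 weeks of normal chow, and was collected with the CTL mice in week 6. No transgene or deletion is given for any group. CPZ mice were therefore collected 2 weeks earlier than the mice of the other groups, and this difference cannot be told apart from the cuprizone chow. A hemisphere mixes gray and white matter and every cell type of the brain, so fewer oligodendrocytes and less of an RNA per oligodendrocyte cannot be told apart in any of the values below.

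Myelin membrane is unusually rich in galactosylceramide and its sulfated form, sulfatide. Both are built from a sphingoid base, which a ceramide synthase joins to a fatty acid to make ceramide, on which a galactose and then a sulfate are placed. The fatty acids of these lipids are very long and often carry a hydroxyl group, and oligodendrocytes supply much of the machinery that elongates and hydroxylates them. Aspartoacylase, the product of Aspa, releases acetate from N-acetylaspartate in oligodendrocytes, and this acetate can enter lipid synthesis. Some of these steps are nearly restricted to myelinating cells, while others serve sphingolipid synthesis in every cell.

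Ugt8a encodes the ceramide galactosyltransferase (ENSMUSG00000032854.12, chromosome 3 from 125865271 to 125938619, minus strand), and Gal3st1 the sulfotransferase that turns galactosylceramide into sulfatide (ENSMUSG00000049721.14, chromosome 11 from 3983636 to 3999326, plus strand). Fa2h encodes the fatty acid 2-hydroxylase (ENSMUSG00000033579.16, chromosome 8 from 111345135 to 111393824, minus strand), and Aspa lies on chromosome 11 from 73304992 to 73329596 on the minus strand (ENSMUSG00000020774.9). Cers2 encodes the ceramide synthase that takes very long acyl chains (ENSMUSG00000015714.11, chromosome 3 from 95314791 to 95323599, plus strand), and Degs1 the desaturase that makes ceramide from dihydroceramide (ENSMUSG00000038633.5, chromosome 1 from 182275772 to 182282804, minus strand). The fatty acid elongases are Elovl1 (ENSMUSG00000006390.15, chromosome 4 from 118428093 to 118432953, plus strand) and Elovl7 (ENSMUSG00000021696.9, chromosome 13 from 108214404 to 108285683, plus strand). Gltp encodes the glycolipid transfer protein (ENSMUSG00000011884.13, chromosome 5 from 114669398 to 114690984, minus strand). Positions are those of GENCODE release M21 on GRCm38. Exons of Cers2 share 144 bases with 6330562C20Rik and 75 with Setdb1 on the opposite strand, and exons of Elovl1 share 53 bases with Cdc20. Whether the counting used strand is not given in the sources used here, so reads from these stretches could belong to either gene. At most 1.37% of the 50-base stretches of any of the 9 genes, in Cers2, also occurred in another gene.

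The promoters of the genes that fell with cuprizone are set here beside those of genes that were not called, since the 9 genes divide into these classes below. RefSeq promoters (GRCm38.p6) were matched by symbol for 8 of the 9 genes, with 12 start sites in all. None was found for Fa2h, which also fell. The windows printed are the 250 bases before the first start site listed for a gene, 5′ to 3′ on the gene's strand. They share no base with an annotated exon of the gene. A further window of Gal3st1 (56% G and C) and of Elovl1 (58%) also shares none and is not printed. The windows of Cers2, Gltp and Degs1 share exon bases and are not printed either. Capitals mark matches, on either strand, to 7 short motifs. Sox factors can bind the motifs ACAAAG and those written ACAATG. The myelin regulator Myrf can bind CTGGCAC. The remaining motifs were the E-box with the letters CAGCTG, the GC-box with the letters GGGCGG, the CCAAT box and the TATA box with the letters TATAAA, with both strands searched. Matches to different motifs shared bases once in the windows printed, in Elovl1, where a GC-box and the CCAAT box had 2 bases in common.
Ugt8a, chr3:125938653-125938902, minus strand: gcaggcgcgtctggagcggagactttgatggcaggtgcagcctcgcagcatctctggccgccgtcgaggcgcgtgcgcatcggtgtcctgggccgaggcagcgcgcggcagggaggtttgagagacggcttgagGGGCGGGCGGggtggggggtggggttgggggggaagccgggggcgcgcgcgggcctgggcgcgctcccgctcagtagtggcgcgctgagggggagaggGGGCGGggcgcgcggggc
Gal3st1, chr11:3983386-3983635, plus strand: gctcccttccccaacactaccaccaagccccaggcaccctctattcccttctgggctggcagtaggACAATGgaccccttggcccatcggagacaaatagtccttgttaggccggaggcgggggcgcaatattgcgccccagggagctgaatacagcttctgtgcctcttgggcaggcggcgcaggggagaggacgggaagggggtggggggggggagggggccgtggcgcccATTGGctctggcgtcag
Aspa, chr11:73324638-73324887, minus strand: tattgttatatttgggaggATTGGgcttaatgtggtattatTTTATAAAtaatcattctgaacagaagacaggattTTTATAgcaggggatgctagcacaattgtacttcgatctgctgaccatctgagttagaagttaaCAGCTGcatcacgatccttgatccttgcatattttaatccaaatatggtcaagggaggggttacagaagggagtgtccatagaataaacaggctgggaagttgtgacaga
Elovl1, chr4:118427843-118428092, plus strand: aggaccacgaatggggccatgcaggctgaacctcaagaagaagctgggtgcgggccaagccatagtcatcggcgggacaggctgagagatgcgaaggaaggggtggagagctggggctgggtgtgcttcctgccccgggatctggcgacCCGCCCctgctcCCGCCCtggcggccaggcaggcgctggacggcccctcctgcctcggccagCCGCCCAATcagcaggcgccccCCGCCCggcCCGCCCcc
Elovl7, chr13:108214154-108214403, plus strand: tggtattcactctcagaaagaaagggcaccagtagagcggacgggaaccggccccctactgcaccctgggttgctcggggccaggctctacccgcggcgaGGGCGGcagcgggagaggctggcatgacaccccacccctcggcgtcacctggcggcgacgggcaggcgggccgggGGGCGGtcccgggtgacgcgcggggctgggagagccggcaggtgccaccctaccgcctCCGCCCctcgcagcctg
Among the windows printed, the stretch of bases directly after the start sites of Ugt8a and Aspa did not occur whole in any GENCODE transcript of these genes. A part of it may still do so. The Aspa window lies within the annotated span of its gene. It differed most from the others in base composition. It held 38.8% G and C, where the median of 32851 mouse promoters was 52.4% and their quartiles 45.2% and 61.2%. It was also the only one of the 12 windows with TATAAA, which it held 3 times, the first 2 overlapping, and which occurs in 12.4% of all promoters. The Ugt8a window, at 76.8% G and C, held GGGCGG 3 times, with the first 2 overlapping, as did Elovl7 without overlap at 73.6%, while Elovl1 at 72% held it 5 times, and 32.7% of all promoters hold this motif. The Gal3st1 window, at 65.6%, held ACAATG once, a motif found in 10.7% of all promoters. CCAAT, in 33.8% of all promoters, occurred once each in the printed Gal3st1, Aspa and Elovl1 windows, and CAGCTG, in 13% of them, once in the Aspa window. Windows not printed held these motifs too. CCAAT and GGGCGG were in windows of Gltp and Cers2, and CAGCTG was in windows of Degs1 and Cers2. None of these genes was called between CPZ and CTL. ACAAAG (16.5% of all promoters) and CTGGCAC (4.19%) were in none of the 12 windows. Ugt8a, which fell, and Elovl7, which was not called, were thus alike in base composition and in the one motif found in them. These matches are a description of the windows and name no binding site.

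The estimated counts of a library came to 4605100 at the lowest and 8197289 at the highest, with 19980 to 21565 genes detected. Counts on the 9 genes lay between 38, for Aspa in a CPZ library, and 558, for Degs1 in a CPZ library. Levels are given below as CPM, counts scaled to library size with TMM factors. A gene was called when its p in the quasi-likelihood test of edgeR, adjusted over all 14985 genes by Benjamini-Hochberg, was below 0.05. The labelled tissue carried its markers. Summed over 10 genes of mature oligodendrocytes, CPM lay between 4378 and 8210 in CTL, 1860 and 3173 in CPZ and 5757 and 9853 in RCV libraries, and all 10 were called lower in CPZ than in CTL. Summed over 10 microglial genes, CPM were 308 to 366 in CTL, 1034 to 2116 in CPZ and 471 to 655 in RCV libraries. The sum of 4 choroid plexus genes lay between 381 and 2616 CPM in CTL, 583 and 2221 in CPZ and 4.04 and 1359 in RCV libraries. The lowest values, 4.04 and 8.46 CPM, were those of RCV replicates 3 and 4. These were also the lowest RCV libraries for 3 and 6 of the 9 genes. The part of differences in the tissue taken in the RCV values was not tested.

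Compared with CTL, CPZ mice had lower levels of the genes of galactolipid assembly, fatty acid hydroxylation and acetate release. Of the 9 genes, Fa2h, Aspa, Ugt8a and Gal3st1 were called lower and none higher, that is 4 of 9, where 2.5% of all genes tested were called lower and 10.2% in either direction. In each of these 4 genes, every CPZ library lay below every CTL library, which held for 4.86% of all genes. The other 5, Cers2, Degs1, Elovl1, Elovl7 and Gltp, were not called. The median log2 fold change of the 9 genes was -0.34, and that of all genes tested was -0.02. The genes were chosen as a group with earlier results of these data known, so these counts describe the group and do not test it.

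Ugt8a stood at 67.3, 68.7, 84.4, 39.1 and 67.7 CPM in the CTL mice, at 18.6, 16.7, 27.2 and 35.4 CPM in the CPZ mice and at 69.8, 80.7, 52.9 and 60.3 CPM in the RCV mice. The lowest CTL mouse, replicate 4, lay just above the highest CPZ mouse, also replicate 4, and the RCV mice lay within the CTL range. The mean was 65.4 ± 16.4 CPM (SD, n = 5) in CTL and 24.5 ± 8.61 (SD, n = 4) in CPZ, which is 0.374 times the CTL level. On the log2 scale the difference was -1.42 with a standard error of 0.25 (adjusted p = 0.0027). In RCV the mean was 65.9 ± 12.0 CPM (SD, n = 4). Ugt8a RNA was thus not told apart between RCV and CTL mice, with a log2 fold change of 0.02 and a 95% interval from -0.45 to 0.48.

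Gal3st1, which acts directly after Ugt8a, fell by less. Its CPM were 14.7, 13.5, 15.1, 11.01 and 12.3 in the CTL mice, 6.92, 7.66, 8.19 and 9.43 in the CPZ mice and 12.6, 14.9, 13.3 and 11.7 in the RCV mice. The CPZ mice lay below all other mice, and the CTL and RCV mice overlapped. Between CPZ and CTL the log2 fold change was -0.73 with a standard error of 0.13 (adjusted p = 0.00108), or 0.605 times the CTL level, and its 95% interval, from -0.98 to -0.47, overlapped that of Ugt8a, from -1.92 to -0.92, by little. Whether these folds differ was not tested. Between RCV and CTL, the value for Gal3st1 was -0.02 (95% interval from -0.27 to 0.23).

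Fa2h, whose product hydroxylates the fatty acids of these lipids, had the largest fold of the 9 genes. It stood at 59.7, 51.0, 68.5, 32.1 and 39.8 CPM in the CTL mice, at 10.1, 7.17, 13.04 and 21.4 CPM in the CPZ mice and at 48.7, 69.8, 37.3 and 38.2 CPM in the RCV mice. CPZ replicate 4 was again the highest of its group, and CTL replicate 4 the lowest of its own. The CTL mean of 50.2 ± 14.7 CPM (SD, n = 5) compared with 12.9 ± 6.15 (SD, n = 4) for CPZ, or 0.257 times the CTL level. The log2 fold change of -1.96 had a standard error of 0.33 (adjusted p = 0.00201). In RCV mice it was 48.5 ± 15.1 CPM (SD, n = 4), and the log2 fold change from CTL was -0.05 (95% interval from -0.63 to 0.54). Fa2h was also the gene with the widest intervals, so of the 9 genes its level after recovery was the least precisely known.

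Aspa stood at 20.5, 17.2, 18.4, 9.79 and 19.6 CPM in the CTL mice, at 5.91, 5.23, 5.27 and 6.59 CPM in the CPZ mice and at 13.05, 18.95, 14.05 and 12.6 CPM in the RCV mice. The CPZ mice were close together and below all others, and 3 of the 4 RCV mice lay between CTL replicate 4 and the other CTL mice. Between CPZ and CTL the log2 fold change was -1.57 with a standard error of 0.20 (adjusted p = 4.9e-05), or 0.336 times the CTL level, with means of 17.1 ± 4.28 (SD, n = 5) and 5.75 ± 0.639 CPM (SD, n = 4). The RCV mean was 14.7 ± 2.93 CPM (SD, n = 4), a log2 difference of -0.22 from CTL with a standard error of 0.18 (adjusted p = 0.976) and a 95% interval from -0.58 to 0.14. Without CTL replicate 4 this value was -0.37, and it was not called there either.

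**Figure D1:**
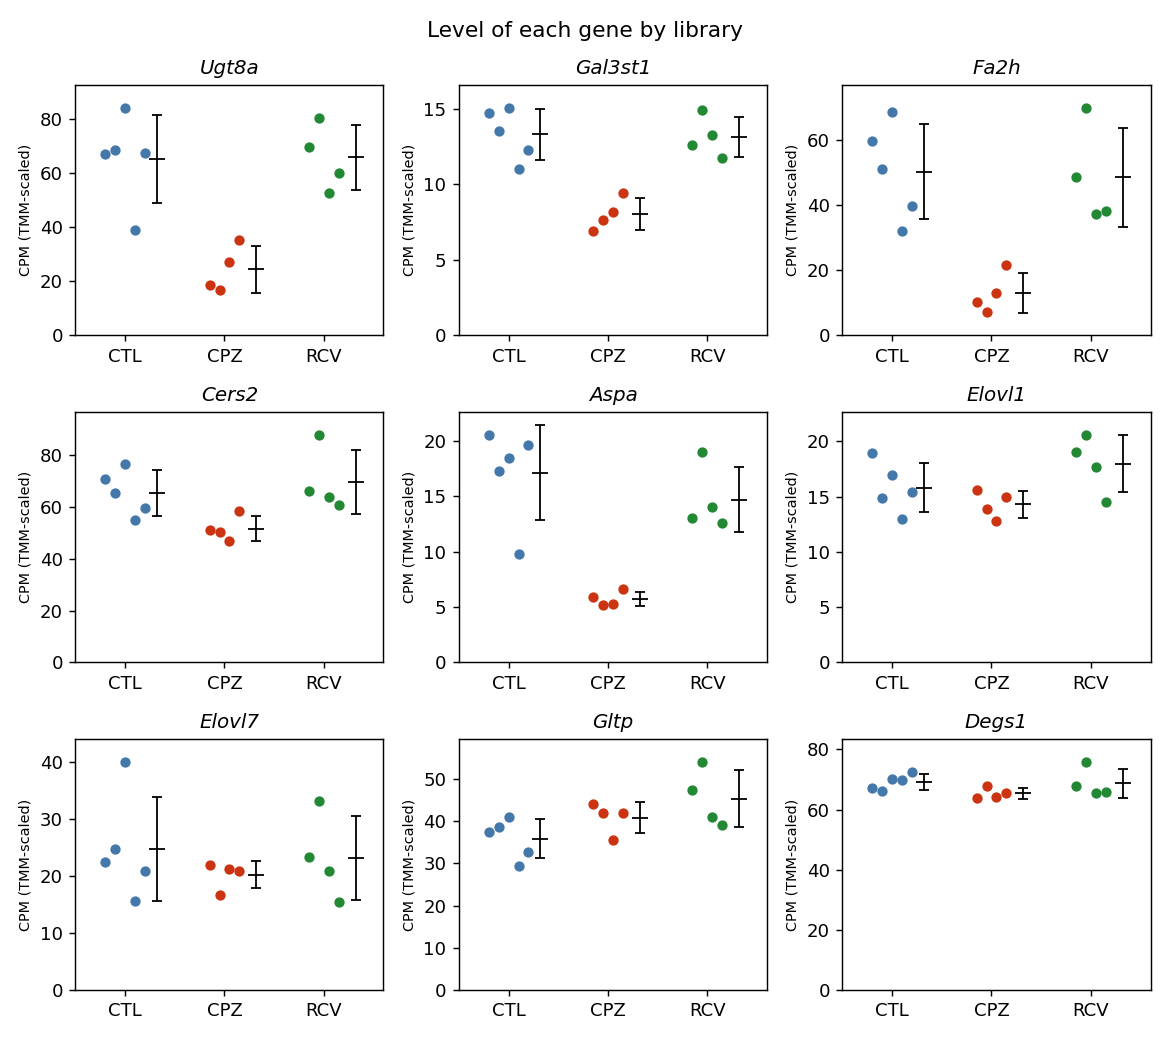
CPM scaled by TMM (y axes, from 0) of each of the 9 genes in every library of CTL (blue, n = 5), CPZ (red, n = 4) and RCV (green, n = 4), with the mean and SD of each group as a black bar. The CPZ points of Ugt8a, Gal3st1, Fa2h and Aspa lie below all CTL and RCV points, those of Cers2 lie below the RCV points, and those of Degs1, Elovl1, Elovl7 and Gltp overlap both other groups.

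The genes that build ceramide itself moved little. Cers2 stood at 71.0, 65.4, 76.8, 54.9 and 59.6 CPM in the CTL mice, at 51.1, 50.3, 46.9 and 58.4 CPM in the CPZ mice and at 66.3, 87.96, 64.1 and 60.7 CPM in the RCV mice. CPZ replicate 4 lay above CTL replicate 4, so CPZ and CTL overlapped, while every CPZ mouse lay below every RCV mouse. Between CPZ and CTL the log2 fold change was -0.34 with a standard error of 0.12 (adjusted p = 0.079), and the gene was called with only these groups in the fit (-0.33, adjusted p = 0.0499), without CTL replicate 4 (-0.40, adjusted p = 0.0373) and without RCV replicate 2 (-0.34, adjusted p = 0.0234). Degs1, needed for ceramide in all cells, was the steadiest of the 9 genes. It lay between 66.0 and 72.6 CPM in CTL, 64.0 and 67.8 in CPZ and 65.4 and 75.8 in RCV mice. The log2 fold change between CPZ and CTL was -0.08, and its 95% interval, from -0.19 to 0.03, did not reach that of Ugt8a.

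The elongases and the transfer protein were not called in CPZ against CTL. Elovl1, which lengthens saturated chains to the very long range, lay between 12.996 and 18.9 CPM in CTL, 12.8 and 15.6 in CPZ and 14.5 and 20.6 in RCV mice, with a log2 fold change between CPZ and CTL of -0.15 (95% interval from -0.39 to 0.09). Elovl7 lay between 15.6 and 40.0 CPM in CTL, 16.7 and 21.9 in CPZ and 15.4 and 33.1 in RCV mice, with a log2 fold change of -0.30 and a wide interval from -0.79 to 0.20. CTL replicate 3 stood apart as its highest library, and without it the log2 fold change was -0.06 (adjusted p = 0.917). Gltp, whose product moves glycolipids between membranes, stood at 37.5, 38.7, 41.0, 29.5 and 32.6 CPM in the CTL mice, at 44.1, 42.1, 35.5 and 42.0 CPM in the CPZ mice and at 47.4, 54.1, 41.0 and 39.0 CPM in the RCV mice. It was the only one of the 9 genes with a positive log2 fold change between CPZ and CTL, 0.19 (95% interval from -0.03 to 0.40, adjusted p = 0.36), and the groups overlapped.

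**Figure D2:**
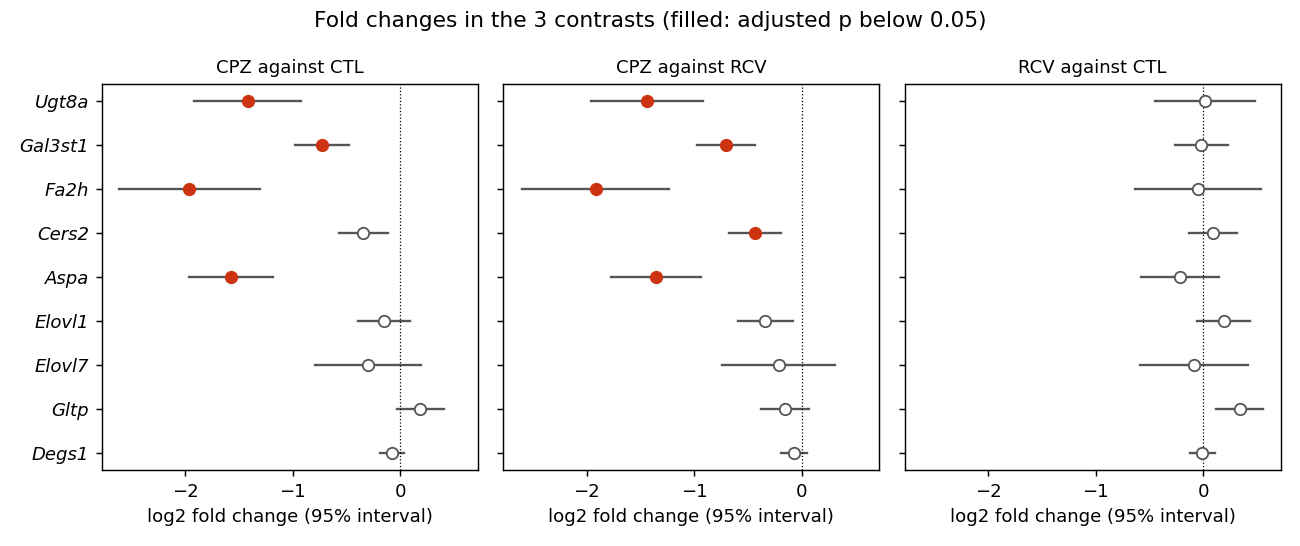
Log2 fold changes (x axes) of the 9 genes (y axis) in CPZ against CTL, CPZ against RCV and RCV against CTL, with 95% intervals as lines and filled points where the adjusted p was below 0.05. Fa2h, Aspa, Ugt8a and Gal3st1 are filled and to the left of 0 in both contrasts of CPZ, Cers2 only in CPZ against RCV, and no point is filled in RCV against CTL.

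Between CPZ and RCV mice the same 4 genes were called lower in CPZ, and Cers2 with them. That is 5 of 9 genes lower and none higher, where 1.88% of all genes tested were called lower and 7.01% in either direction, and all 5 had every CPZ library below every RCV library, as did 4.93% of all genes. The log2 fold changes were -1.91 for Fa2h (standard error 0.35, adjusted p = 0.00611), -1.43 for Ugt8a (standard error 0.27, adjusted p = 0.00635), -1.35 for Aspa (standard error 0.21, adjusted p = 0.00102) and -0.71 for Gal3st1 (standard error 0.14, adjusted p = 0.00459). That of Cers2 was -0.44 (standard error 0.12, adjusted p = 0.044), and this call was less firm. It was kept in 9 of 23 alternative fits, whose adjusted p ranged from 0.0198 to 0.126, and among the libraries left out it was kept only without CTL replicate 3 or 4, CPZ replicate 4 or RCV replicate 4. Without RCV replicate 2, the highest library for Cers2, the log2 fold change was -0.30 (adjusted p = 0.103). Elovl1 was next, at -0.34 (adjusted p = 0.154), and Elovl7, Gltp and Degs1 lay at -0.21, -0.15 and -0.07.

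Between RCV and CTL mice none of the 9 genes was called, by edgeR, DESeq2 or limma-voom, where these called 0.374%, 0.874% and 0.0801% of all genes tested. At an unadjusted p below 0.05 there was 1, Gltp, whose log2 fold change of 0.34 had a standard error of 0.11 (unadjusted p = 0.00746, adjusted p = 0.374), with 6.2% of all genes below that threshold. The median of the 9 genes was -0.01. Cers2 lay at 0.09, Elovl1 at 0.19, Elovl7 at -0.08 and Degs1 at -0.01. For the 4 genes called in CPZ against CTL, the share of the fall still present in each RCV mouse was computed on the log2 scale as its distance from the CTL mean over the distance from the CTL to the CPZ mean. This share was -0.0247 ± 0.183 (SD, n = 4) for Ugt8a, 0.0223 ± 0.203 (SD, n = 4) for Gal3st1, 0.0231 ± 0.210 (SD, n = 4) for Fa2h and 0.131 ± 0.177 (SD, n = 4) for Aspa. In each of the 4 genes the shares of single mice lay on both sides of 0. These SDs describe the spread between RCV mice and leave out the error of the CTL and CPZ means. For the mean of the 10 mature oligodendrocyte genes the share was -0.0944 ± 0.227 (SD, n = 4). RCV and CTL were not told apart by the tests of the 9 genes, and intervals as wide as that of Fa2h leave sizable differences possible.

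Levels of different genes can be compared only per length of transcript, for which the deposited TPM values were used. In CTL mice the genes that build ceramide led, with Degs1 at 80.04 and Cers2 at 77.4 TPM, whose ranges overlapped. Next came Gltp at 47.1, Fa2h at 44.7, Ugt8a at 36.9 and Elovl1 at 30.5 TPM. Below them lay Aspa at 26.3, Gal3st1 at 16.6 and Elovl7 at 13.4 TPM (all means, n = 5). Along this order, the ranges of neighbours were apart only between Cers2 and Gltp and between Aspa and Gal3st1. In CPZ mice the order changed to Degs1 at 73.1, Cers2 at 58.1, Gltp at 53.9, Elovl1 at 27.1, Ugt8a at 13.8, Fa2h at 11.2, Elovl7 at 10.7, Gal3st1 at 9.85 and Aspa at 9.16 TPM (means, n = 4). Fa2h and Ugt8a dropped below Elovl1, and the ranges were apart between Degs1 and Cers2, Gltp and Elovl1, and Elovl1 and Ugt8a. From Ugt8a to Aspa, the ranges of all neighbours overlapped. In RCV mice Cers2 stood at 83.5, Degs1 at 79.6, Gltp at 61.2, Fa2h at 43.9, Ugt8a at 37.7, Elovl1 at 33.9, Aspa at 21.6, Gal3st1 at 16.1 and Elovl7 at 12.2 TPM (means, n = 4), the order of CTL apart from Cers2 and Degs1, and all neighbours overlapped.

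**Figure D3:**
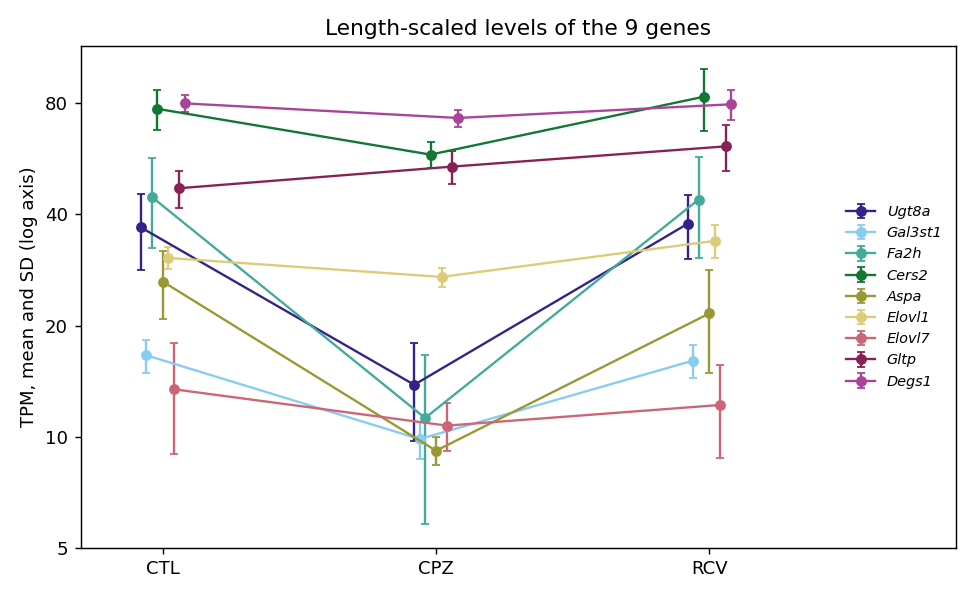
Mean TPM with SD (y axis, log scale) of the 9 genes in CTL (n = 5), CPZ (n = 4) and RCV (n = 4), joined by a line per gene. Fa2h falls from 44.7 to 11.2 TPM and Ugt8a from 36.9 to 13.8 TPM between CTL and CPZ, crossing Elovl1, while Degs1 stays between 73.1 and 80.04 TPM in all groups.

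Set against the 10 mature oligodendrocyte genes of the same library, among them Mbp, Mog, Mag and Opalin, the genes that fell were not alike. The mean log2-CPM of these markers was 8.02 ± 0.356 (SD, n = 5) in CTL mice, 6.53 ± 0.320 (SD, n = 4) in CPZ mice and 8.16 ± 0.338 (SD, n = 4) in RCV mice. Relative to that mean, Ugt8a differed between CPZ and CTL by 0.06 and Aspa by -0.00 on the log2 scale, and Fa2h by -0.51, and for all 3 genes the libraries of CPZ and CTL overlapped. Gal3st1 was higher relative to the markers by 0.78 in CPZ, Cers2 by 1.15, Elovl7 by 1.26, Elovl1 by 1.35, Degs1 by 1.41 and Gltp by 1.68, each with every CPZ library above every CTL library. This holds for 88% of all genes tested, so it is the overlap of Ugt8a, Aspa and Fa2h that sets them apart from most genes. The log2 fold changes of these 3 genes lie within the range of the markers, from -2.43 for Mal to -0.61 for Cnp. That of Gal3st1, at -0.73, lies within this range too. These ratios carry no test. Between RCV and CTL, all 9 ratios overlapped.

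The spread between mice of a group ran along the same markers. RCV replicate 2, the highest RCV mouse in the marker mean at 8.61, was the highest RCV mouse for all 9 genes. CTL replicate 4, the lowest CTL mouse in the marker mean at 7.45, was the lowest CTL mouse for 8 of 9 genes, all but Degs1, and CPZ replicate 4, the highest CPZ mouse at 7.01, was the highest for 5 of 9. With group means removed, the correlation with the marker mean over the 13 libraries was 0.93 for Cers2 (Spearman 0.89), 0.90 for Fa2h (0.90), 0.87 for Gal3st1 (0.82), 0.86 for Ugt8a (0.82), 0.81 for Aspa (0.81), 0.81 for Gltp (0.75), 0.81 for Elovl7 (0.67) and 0.75 for Elovl1 (0.70). Without CPZ replicate 4 and RCV replicate 2, these lay between 0.75 and 0.91. Degs1 had 0.34 (0.29), and -0.01 without these libraries. Correlations as high as that of Cers2 occurred in 0.174% of all genes tested, as that of Elovl1 in 1.53% and as that of Degs1 in 17.9%. The values share each library's depth and tissue composition and describe these 13 libraries. Cers2, Elovl1, Elovl7 and Gltp thus varied with the myelin genes from mouse to mouse within groups, although none of the 4 was called between CPZ and CTL.

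**Figure D4:**
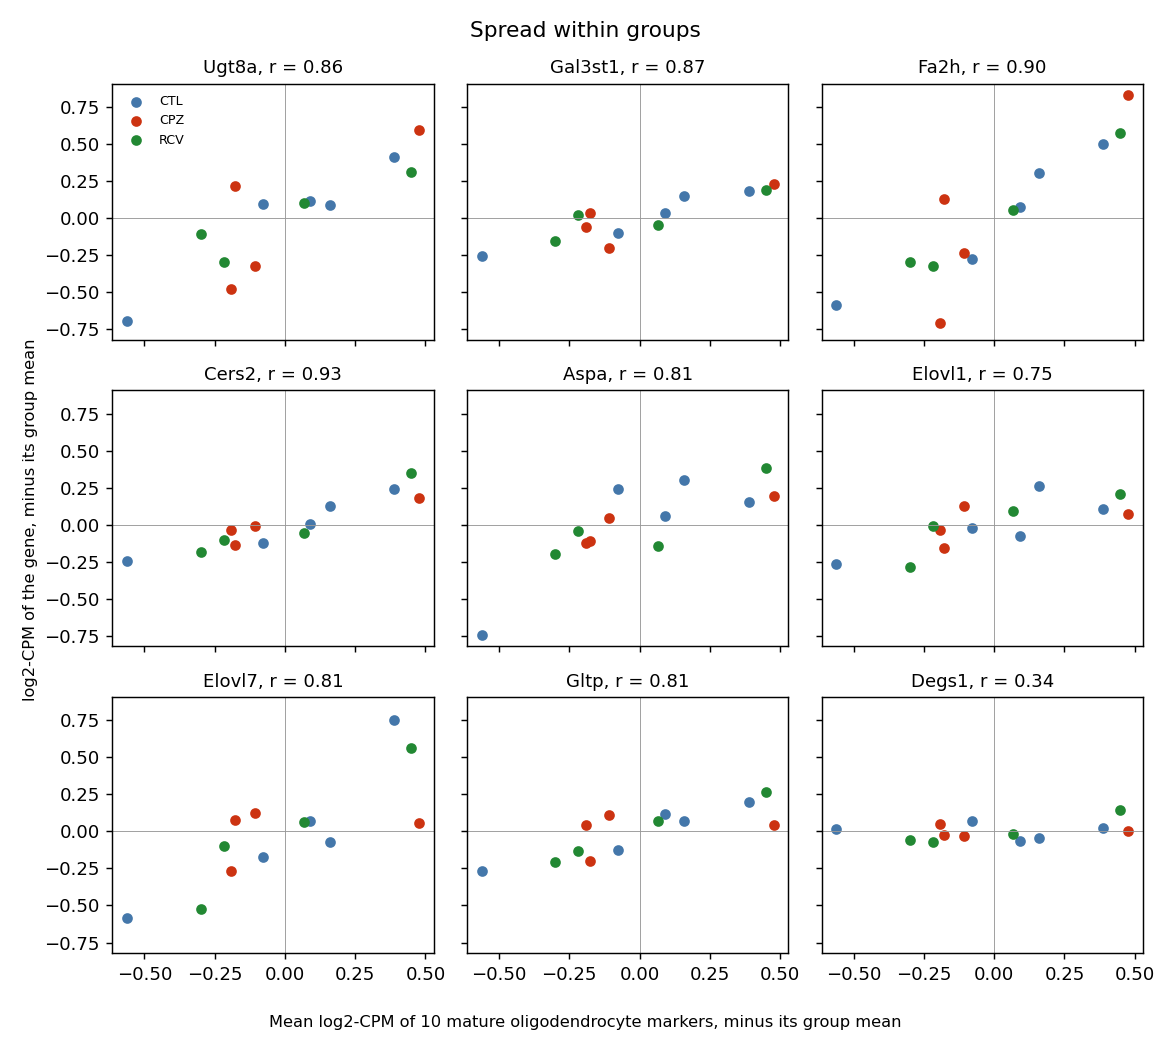
Log2-CPM of each gene minus its group mean (y axes) against the mean log2-CPM of 10 mature oligodendrocyte genes minus its group mean (x axes), 1 point per library of CTL (blue), CPZ (red) and RCV (green). The points rise together for all genes but Degs1, with r from 0.75 for Elovl1 to 0.93 for Cers2, against 0.34 for Degs1.

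The genes whose pattern over the 13 libraries was most like that of each gene were found by Pearson correlation of log2-CPM, with the value after removal of group means in brackets. Among them were Itgb4 at 0.97 (0.86) for Ugt8a, and Plekhh1 at 0.98 (0.92) and the oligodendrocyte gene Opalin at 0.97 (0.89) for Gal3st1. For Fa2h they were Adamtsl4 at 0.98 (0.91) and Mbp, the gene of myelin basic protein, at 0.98 (0.94), and for Aspa Anln at 0.98 (0.92) and Efhd1 at 0.97 (0.81). Opalin and Mbp belong to the list of 10 mature oligodendrocyte genes, so Gal3st1 and Fa2h each had a gene of that list as a neighbour. For Cers2 the neighbours were Tmbim1 at 0.97 (0.96) and Josd2 at 0.97 (0.97), for Elovl1 Apod at 0.91 (0.85) and Mlst8 at 0.89 (0.86), and for Elovl7 Frmd8 at 0.96 (0.97) and Slc12a2 at 0.91 (0.92). Those of Gltp were Thbs4 at 0.89 (0.81) and Msrb1 at 0.88 (0.87), and for Degs1 Itfg2 was found at 0.86 (0.89). The 13 libraries fall into 3 groups, so correlations before the removal of group means also hold the differences between groups.

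The steps around the 9 genes were followed in 7 lists with 75 further genes, of which 71 were tested, leaving out Sptlc3, Cers3, Elovl3 and Gltpd2. Between CPZ and CTL, 12 of the 71 were called, 10 higher and 2 lower in CPZ, where 10.2% of all genes were called (7.66% higher and 2.5% lower), and 22 were below an unadjusted p of 0.05, as were 22.1% of all genes. The median log2 fold change of the 71 genes was 0.01. Of the 12 calls, 7 were in the list of lysosomal glycolipid breakdown and 5 were spread over 4 of the other 6 lists.

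Upstream of ceramide, 1 of 13 tested genes was called, where 10.2% of all genes tested were. It was Cers4, a ceramide synthase for long acyl chains. Its level fell by 0.22 on the log2 scale between CTL and CPZ (adjusted p = 0.0346), with 89.0 ± 6.30 CPM (SD, n = 5) and 76.5 ± 4.68 (SD, n = 4). This call was lost without any of CTL replicates 4 and 5, CPZ replicates 1, 2 and 3 and RCV replicate 4 (adjusted p up to 0.134). Sptlc2, a subunit of the serine palmitoyltransferase that starts the pathway, lay at 0.01, the neuronal ceramide synthase gene Cers1 at -0.23 (adjusted p = 0.103) and Cers6 at -0.05. Of 10 tested genes of the elongation cycle, Hacd4, a dehydratase gene of this cycle, was called higher, at 1.34 (adjusted p = 0.005). Its level was low, 2.70 ± 1.27 CPM (SD, n = 5) in CTL and 7.002 ± 1.64 (SD, n = 4) in CPZ. Tecr, which encodes the last enzyme of the cycle, lay at -0.18 (adjusted p = 0.0716, but 0.0389 by DESeq2), Elovl6 at -0.24 (adjusted p = 0.174) and Hacd3 at -0.11 (adjusted p = 0.412).

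Ceramide also feeds other sphingolipids, and of 8 genes of those branches 1 was called, where 10.2% of all genes tested were. Cerk, the ceramide kinase gene, rose by 0.34 (adjusted p = 0.0223), a call lost without CTL replicate 2 or 4 or CPZ replicate 1 or 2 (adjusted p up to 0.103). B4galt6, a lactosylceramide synthase, lay at -0.16 (adjusted p = 0.153), St3gal5, the GM3 synthase, at -0.01 and Col4a3bp, the ceramide transporter, at -0.02. Neither of the other 2 tested transfer protein genes was called, with Plekha8 at -0.07 and Cptp at -0.00. None of the 8 genes was called lower, near the 2.5% called lower among all genes, so this count sets nothing apart.

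In the list of lysosomal glycolipid breakdown, 7 of 12 genes rose from CTL to CPZ, and none was called lower, with a median log2 fold change of 0.41. Among the genes that rose was Hexa, which encodes a subunit of beta-hexosaminidase, at 1.45 (adjusted p = 5.81e-05). Glb1, the beta-galactosidase, rose by 0.67 (adjusted p = 0.000174), Gm2a, the GM2 activator, by 0.66 (adjusted p = 1.39e-05) and Asah1, acid ceramidase, by 0.52 (adjusted p = 0.000741). Sumf1, which activates sulfatases, rose by 0.32 (adjusted p = 0.0331), a call lost without CTL replicate 1, 2 or 5 or CPZ replicate 1 or 3 (adjusted p up to 0.129), and the other 6 calls were kept with each library left out. The enzymes specific to the lipids that Ugt8a and Gal3st1 make were not among them. Galc, which removes the galactose of galactosylceramide, lay at 0.10 (adjusted p = 0.593) with 33.7 ± 2.28 CPM (SD, n = 5) in CTL and 36.2 ± 4.94 (SD, n = 4) in CPZ, and Arsa, which removes the sulfate of sulfatide, at -0.03 (adjusted p = 0.898). Psap, the saposin precursor, lay at 0.10 (adjusted p = 0.331) and Smpd1, acid sphingomyelinase, at -0.07 (adjusted p = 0.596). All 10 microglial markers were called higher in the same contrast, with a median log2 fold change of 2.42, and 5 of 8 astrocyte markers. The part of these cells in the rise of the lysosomal genes was not tested.

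Around Aspa, edgeR called 0 of 8 genes of acetylaspartate and acetate between CPZ and CTL, and 10.2% of all genes tested. At an unadjusted p below 0.05 there were 2 of the 8, with 22.1% of all genes below that threshold. The median log2 fold change of the 8 was -0.06. Nat8l, which makes N-acetylaspartate in neurons, lay at -0.15 (adjusted p = 0.0863) and Acss2, which turns acetate into acetyl-CoA, at -0.32 (adjusted p = 0.0526). DESeq2 called both lower (adjusted p = 0.0272 and 0.0389). Acss2 was also called lower by limma on log2(TPM + 1) and log2(TPM + 0.1) and by edgeR with no count filter (adjusted p = 0.0415, 0.0419 and 0.0429), while limma-voom called neither gene. Acly, which makes acetyl-CoA from citrate, lay at -0.08. Of 18 genes that activate or break down very long or hydroxylated fatty acids, 1 was called in each direction. Of all genes tested, 7.66% were called higher and 2.5% lower. Abcd2, a peroxisomal transporter of very long-chain acyl-CoA, rose by 0.45 (adjusted p = 0.0431), and Slc27a4, a fatty acid transport protein and acyl-CoA synthetase, fell by 0.21 (adjusted p = 0.0492). Abcd2 was called in 11 and Slc27a4 in 4 of 23 alternative fits, with adjusted p up to 0.154 and 0.205 when a library was left out. The acyl-CoA synthetase genes Acsl3 and Acsl6 lay at -0.03 and 0.04.

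**Figure D5:**
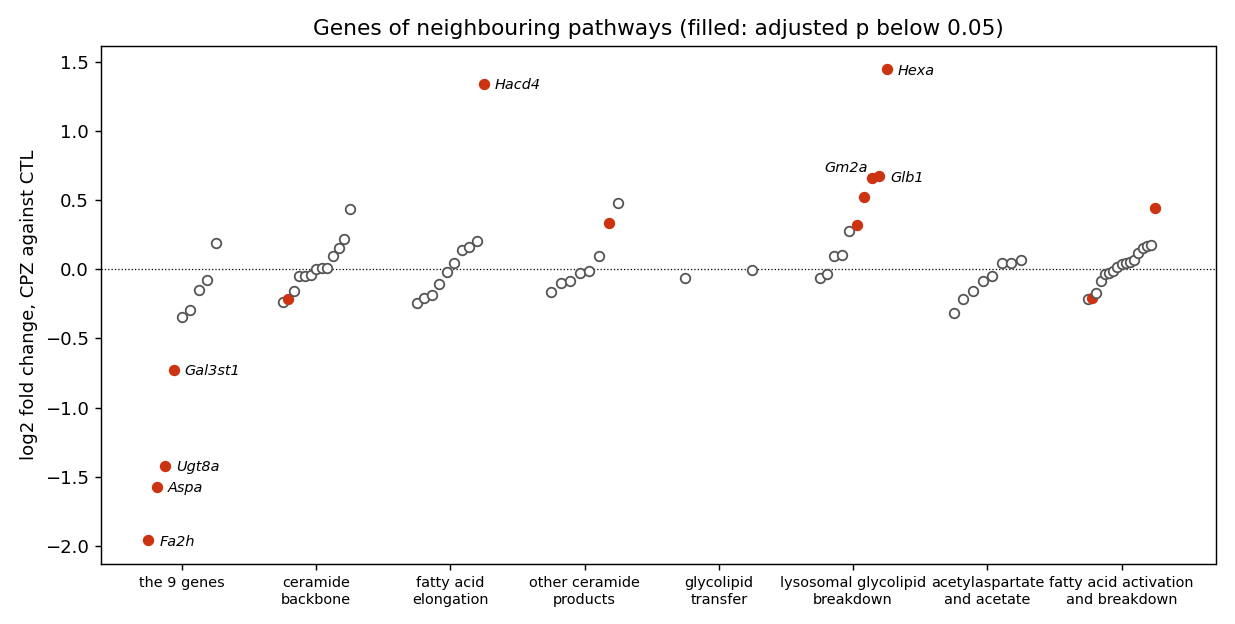
Log2 fold changes between CPZ and CTL (y axis) of the 9 genes and of tested genes of the 7 lists, without those not reported here (x axis, 1 point per gene in rising order within a list), filled where the adjusted p was below 0.05. The falls beyond -0.5 are Fa2h, Aspa, Ugt8a and Gal3st1, and of the 10 genes plotted for lysosomal glycolipid breakdown 5 are filled above 0, up to 1.45 for Hexa.

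Between CPZ and RCV, 6 of the 71 genes were called, where 7.01% of all genes were. Among these, Hexa (1.12, adjusted p = 0.00195), Glb1 (0.46, adjusted p = 0.0118) and Gm2a (0.43, adjusted p = 0.00334) were higher in CPZ. Cers4 (-0.24, adjusted p = 0.0383) and Acsl1, an acyl-CoA synthetase gene (-0.25, adjusted p = 0.0475, with overlapping libraries), were lower, and these 2 calls were kept in 9 and 5 of 23 alternative fits. Between RCV and CTL, edgeR and limma-voom called 0 of the 71 and DESeq2 called 1. Of all genes tested, these methods called 0.374%, 0.0801% and 0.874%. At an unadjusted p below 0.05 in edgeR there were 5 of the 71, where 6.2% of all genes tested lay below that threshold. Among the 5 were Sumf1, Gm2a and Asah1 of glycolipid breakdown, which lay higher in RCV (0.31, 0.24 and 0.22), and B4galt5 at -0.21.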

How the data were processed

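The authors made libraries with the Kapa mRNA HyperPrep kit from RNA of 13 hemispheres and sequenced 50-base read pairs. The submitters' processing notes name STAR, RSEM and mm10, and the paper the RNASequest pipeline. The authors deposited expected counts without scaling to depth, rounded here, and TPM values, scaled to transcript length and depth. Groups come from the labels, which hold more libraries than the study's text gives for sequencing, name no batch and head the RCV titles with "Veh". No source says that replicate numbers pair mice.

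Genes passing filterByExpr of edgeR 4.0.16 were scaled with TMM factors and compared by the robust quasi-likelihood F test, in 1 fit of 13 libraries with a mean per group and no covariate. Adjustment was by Benjamini-Hochberg over 14985 genes, at a threshold of 0.05. The standard error is the log2 fold change over the square root of F. Log2-CPM had a prior count of 2. Chi-squares of 4.46 to 17.2 per gene separated the 22 pairs of libraries within groups, so none is a copy. Rows of 92 spike-in sequences held 0% of the counts. The fit was tested on simulated data.

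Named are the 9 genes, every listed gene called in any contrast, up to 3 uncalled genes per list with the highest mean level, and the 2 genes most like each of the 9, apart from genes that are not reported here. Arsa, the opposite-strand genes and B4galt5 were added after their values were seen. The 9 genes, the lists and the tests were chosen with earlier results of these data known. Alternatives were DESeq2 1.42.0 (size factors, Wald test), limma 3.58.1 (voom, or log2 TPM plus 1 or 0.1 where TPM reached 1 in 4 libraries, the former also unfiltered), no count filter, 10 counts or more in every library, only the 2 groups compared, a replicate block and each library left out. Software was R 4.3.3 and Python 3.11.15 (numpy 2.4.6, matplotlib 3.10.9). The nuclei and spatial data were not analysed here.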

Additional observations from a re-analysis of the deposited data

Results flagged for a closer look

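In groups of 4 or 5 libraries, the gap between the lowest or highest library and its nearest neighbour was compared with the range of the group by Dixon's criterion, for 9 genes in 3 groups. It marked 2 of 27, and chance marks about 1 in 20. Aspa stood at 9.79 CPM in CTL replicate 4, with the other CTL mice between 17.2 and 20.5 CPM. That library was also the lowest of its group for 8 of the 9 genes and in the mean of the mature oligodendrocyte markers. Without it, the log2 fold change of Aspa between CPZ and CTL was -1.72 in place of -1.57. Elovl7 stood at 16.7 CPM in CPZ replicate 2, with the other CPZ mice between 20.9 and 21.9 CPM, and the gene was not called in any contrast with or without this library.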

How the results depend on the processing

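Depth limits Aspa most, with 38 to 51 counts in CPZ libraries. Fa2h, Aspa, Ugt8a and Gal3st1 kept their call between CPZ and CTL in all 23 alternatives, with adjusted p up to 0.0296, 0.000925, 0.0439 and 0.00851. Of the 9 genes, 4 to 5 were called in that contrast with each library left out, and 0 between RCV and CTL in every alternative. Between CPZ and RCV, 5 were called, 4 to 5 with a library left out and 2 with the replicate block, where Ugt8a (adjusted p = 0.0529), Fa2h (0.0522) and Cers2 (0.118) lost their calls. Same-numbered libraries did not deviate together (correlations from -0.199 to 0.136 over 12 pairs), and 1 of 13 libraries correlated best with its own number. These values gave no sign of pairing by number, but so few pairs cannot exclude it. Of the other 71 genes, 12 were called between CPZ and CTL, but 15 by DESeq2, 7 and 6 by limma on log2(TPM + 1) and log2(TPM + 0.1), 5 without its filter, and 7 to 12 with a library left out (7 without CPZ replicate 1). The replicate block gave 8. Between CPZ and RCV the 6 became 3 with log2(TPM + 0.1) and 3 without the TPM filter, and 4 to 7 with a library left out. Between RCV and CTL the 0 became 1 with DESeq2, and 1 with only these groups in the fit. The cause was not tested. Signs turned only for values near 0. Degs1 between RCV and CTL became 0.0096 with the replicate block, and with a library left out the log2 fold changes of that contrast ranged from -0.122 to 0.124 for Ugt8a, -0.0871 to 0.0288 for Gal3st1, -0.275 to 0.0913 for Fa2h, -0.0409 to 0.155 for Cers2, -0.306 to 0.158 for Elovl7 and -0.0573 to 0.0165 for Degs1. Elovl7 between CPZ and RCV ranged from -0.347 to 0.00728. Ratios to the markers and shares remaining in RCV moved by less than 1 SD.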
